A study of Homo sapiens with 38 samples.

Results

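The genes described here are 7 targets and regulators of the Wnt and beta-catenin pathway, AXIN2, NKD1, RNF43, ZNRF3, TCF7, TCF7L2 and SP5, in HCT116 cells depleted of VPS4A, VPS4B or both. They were taken from a list of 9 symbols by matching each symbol to the RefSeq identifiers of the deposited table. Of the 9, 7 were among the 12627 genes of the table, each with 1 identifier, and ASCL2 and LGR5 had no matching identifier and were not analysed here. HCT116 is a human colorectal carcinoma line that carries an activating mutation in the beta-catenin gene, and all 9 conditions, controls included, share this background. RNA was sequenced in 38 libraries of 9 conditions, with 5 libraries each of siCTRL#1 and siVPS4A#1 and 4 of each other condition. NT cells received no siRNA. Cells of siCTRL#1 received 60 nM of a non-targeting duplex, and siCTRL#2 cells received a second non-targeting duplex whose amount the labels do not give. Cells of siVPS4A#1, siVPS4A#2, siVPS4B#1 and siVPS4B#2 received 30 nM of the named on-target duplex and 30 nM of siCTRL#1. The pair named siVPS4A+B#1 joined siVPS4A#2 to siVPS4B#1 and the pair named siVPS4A+B#2 joined siVPS4A#1 to siVPS4B#2, each duplex at 30 nM and without siCTRL#1, and transfected cells were collected after 72 h. VPS4A and VPS4B are paralogous ATPases that take apart ESCRT-III filaments on endosomes and other membranes.

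In the canonical Wnt pathway a destruction complex built on APC and the AXIN proteins marks beta-catenin for degradation. When Wnt ligands engage Frizzled and LRP receptors, or when beta-catenin is mutated at the sites that the complex phosphorylates, beta-catenin accumulates and acts with TCF and LEF factors on target genes. Several targets feed back on the pathway. AXIN2 is a scaffold of the destruction complex, NKD1 binds Dishevelled, and RNF43 and ZNRF3 are membrane ubiquitin ligases that remove Frizzled receptors from the cell surface and are themselves cleared through endosomes. TCF7 and TCF7L2 encode DNA-binding factors of the TCF family, and SP5 encodes a zinc finger transcription factor and target of the pathway.

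TCF factors bind DNA at a short sequence, so promoter sequence is shown for the members that RefSeq covers in the table used. RefSeq windows on GRCh38.p14, each from 250 bases before to 50 bases after a transcription start, were found for 4 of the 7 members, namely SP5, RNF43, TCF7 and TCF7L2. AXIN2, NKD1 and ZNRF3 had none. The windows were searched on both strands for the 4 forms of CTTTG followed by AA, AT, TA or TT. Of all 35116 windows, 13.8% held at least 1 form, and 9.23% of the 14801 windows of genes with deposited values did. Of the 8 windows of the members, 3 did. The SP5 window is shown because it alone held 3 matches, and a TCF7, a TCF7L2 and an RNF43 window are shown for contrast, with matches in capitals, 5′ to 3′ on the strand of the gene. They lie at chr2:170715087-170715386 (plus strand) for SP5, chr5:134123368-134123667 (plus strand) for TCF7, chr10:113126383-113126682 (plus strand) for TCF7L2 and chr17:58417485-58417784 (minus strand) for RNF43.
SP5 window: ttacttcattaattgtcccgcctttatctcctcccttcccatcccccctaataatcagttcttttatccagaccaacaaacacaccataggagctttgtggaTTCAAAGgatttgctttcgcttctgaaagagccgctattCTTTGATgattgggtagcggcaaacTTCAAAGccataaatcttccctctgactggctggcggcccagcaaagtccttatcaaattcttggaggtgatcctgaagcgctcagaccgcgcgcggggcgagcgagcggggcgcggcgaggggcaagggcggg
TCF7 window: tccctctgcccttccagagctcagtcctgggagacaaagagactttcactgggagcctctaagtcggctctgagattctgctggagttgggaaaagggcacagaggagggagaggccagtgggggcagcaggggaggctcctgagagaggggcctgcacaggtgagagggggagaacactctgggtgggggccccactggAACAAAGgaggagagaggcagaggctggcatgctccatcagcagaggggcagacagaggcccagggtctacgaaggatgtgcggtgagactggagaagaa
TCF7L2 window: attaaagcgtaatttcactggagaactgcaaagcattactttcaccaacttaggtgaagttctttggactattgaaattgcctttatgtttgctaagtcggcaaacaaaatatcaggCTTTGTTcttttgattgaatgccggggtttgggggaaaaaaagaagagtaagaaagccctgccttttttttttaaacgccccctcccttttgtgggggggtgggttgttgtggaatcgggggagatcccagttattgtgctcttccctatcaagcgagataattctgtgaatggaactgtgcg
RNF43 window: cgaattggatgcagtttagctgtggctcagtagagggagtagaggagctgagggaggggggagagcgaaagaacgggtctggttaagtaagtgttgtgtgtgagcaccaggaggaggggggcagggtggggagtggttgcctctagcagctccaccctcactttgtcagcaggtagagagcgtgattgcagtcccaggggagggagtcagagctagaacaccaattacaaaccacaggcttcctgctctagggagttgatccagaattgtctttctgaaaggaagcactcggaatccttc
The SP5 matches begin at -148, -109 and -84, the TCF7 match at -50 and the TCF7L2 match at -133, counted from the transcription start at 0. Both RNF43 windows held 0 matches. A match is a description of the letters and not a bound site.

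Levels are CPM, the recovered reads scaled to library size with TMM factors, and fold changes are on the scale of log2(CPM + 1), which understates the change of low genes. A gene was called when its fold was at least 1.5 and its Benjamini-Hochberg adjusted p over all genes, from limma, was under 0.05. In 37 of the 38 libraries the totals ran from 5091048 to 11034990 reads (median 7562003). Replicate 2 of siVPS4A#1, with 669231 reads, was left out of every value unless stated, so that siVPS4A#1 has n = 4. A level resting on 3 reads was taken as the floor, at most 0.589 CPM in these libraries, and this limit covers counting error only. Each gene was read by a panel amplicon, so levels are compared between conditions and not between genes. VPS4A had 249 CPM in NT cells and between 2.18 and 19.96 as the mean of the 4 conditions that target it, and VPS4B had 22.2 in NT cells and between 0.433 and 1.28 in those that target it. The 6 epithelial markers in the table, EPCAM, CDH1, KRT8, KRT18, KRT19 and CDX2, summed to between 4363 and 8200 CPM in every library, and VIL1 was not listed. None of the 6 passed in all 4 comparisons of combined silencing, KRT19 having the largest mean log2 fold change, 0.88. Of the markers of other cell types CD68, COL1A1 and PECAM1 were listed, and PTPRC, CD3E, COL1A2, COL3A1 and CDH5 were not. Their sum was 13.5 to 21.6 CPM in NT cells, 25.1 to 41.2 with siCTRL#1, 132 to 199 with siVPS4A+B#1 and 97.6 to 147 with siVPS4A+B#2. CD68, which also encodes a lysosomal membrane protein, moved most, from a mean of 6.17 in NT cells to 136 and 57.7 with the pairs. It did not move alone. With siVPS4A+B#2, 2 of the 3 listed markers were called higher against NT and 2 against siCTRL#1 (28.8% of all genes called in each). With siVPS4A+B#1 these counts were 2 (26.0%) and 1 (22.1%), and siCTRL#2 against NT gave 2 (16.6%). The part of these markers in the results was not tested.

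To find how the members responded to loss of both paralogs, each pair was compared with NT and with siCTRL#1. With siVPS4A+B#2 against siCTRL#1, AXIN2, NKD1, RNF43 and SP5 fell, 4 of 7 members, where 28.8% of all genes were called and 15.9% were called lower. With siVPS4A+B#1 against siCTRL#1, RNF43 and SP5 fell (2 of 7, with 22.1% of all genes called and 11.5% lower). Against NT, siVPS4A+B#2 lowered AXIN2, RNF43 and TCF7L2 (3 of 7, with 28.8% called and 15.7% lower), whereas siVPS4A+B#1 lowered TCF7L2 and raised TCF7 (2 of 7, with 26.0% called). The median log2 fold change of the 7 members with siVPS4A+B#2 was -0.99 against siCTRL#1 and -0.38 against NT, with 7 of 7 below 0 in both, and that of all genes was -0.02 and -0.03. With siVPS4A+B#1 it was -0.52 against siCTRL#1, with 5 of 7 below 0, and 0.16 against NT, with 3 of 7 below 0. The share of all genes below 0 was not counted. The non-targeting siCTRL#2 gave a member median of -0.45 against siCTRL#1, with 6 of 7 below 0, and -0.31 against NT, with 5 of 7. For siVPS4A#1 the median was -0.36 against siCTRL#1, with 6 of 7 below 0, and 0.15 against NT, with 3 of 7. These comparisons share their control libraries. The pairs held no siCTRL#1, so a difference seen only against siCTRL#1 cannot be told apart from the absence of that duplex.

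**Figure D1:**
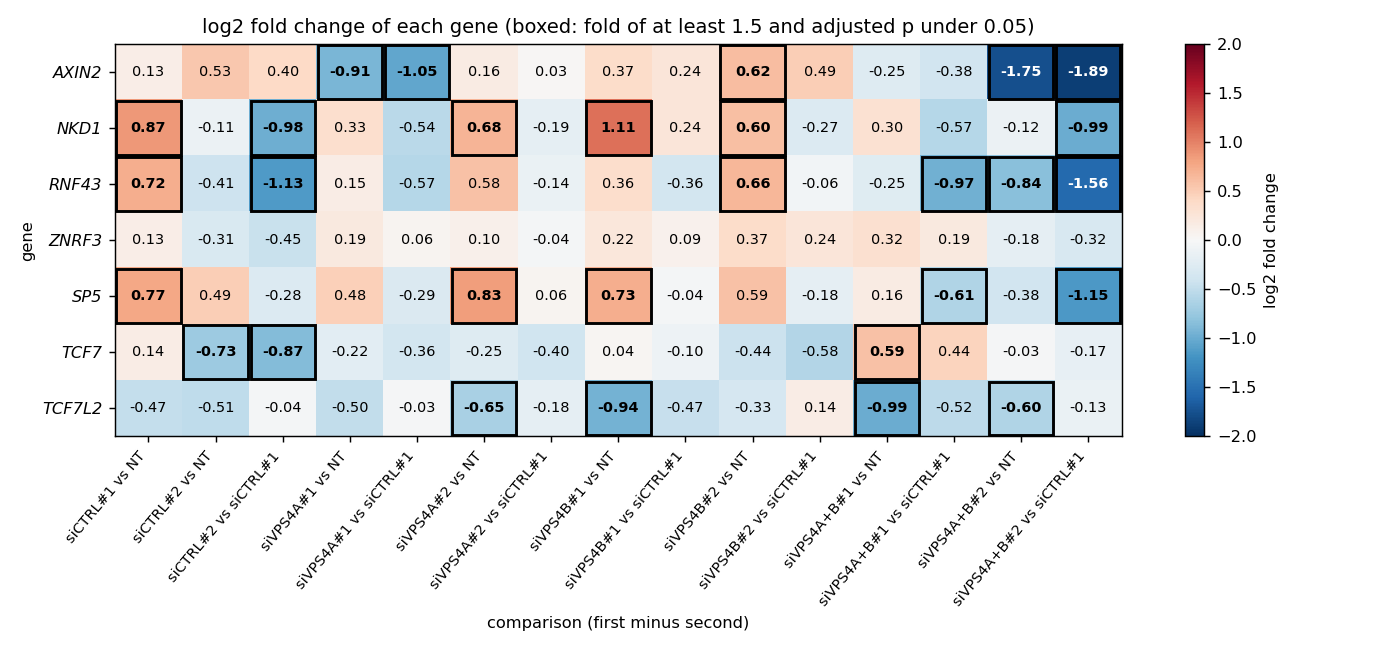
Log2 fold change of each member (rows) in 15 comparisons (columns, first condition minus second), as numbers and colours from blue (lower) to red (higher). Boxes mark calls, and AXIN2 with siVPS4A+B#2, at -1.75 and -1.89, is the lowest row entry against either control.

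No member changed in the same direction in all 4 comparisons of combined silencing (2 pairs against 2 controls), in limma, DESeq2 or edgeR, where 3.96% of all genes were called higher and 4.16% lower in all 4. At an unadjusted p under 0.05 with no fold threshold, 1 of 7 was lower in all 4, RNF43, where 9.09% of all genes were lower and 8.78% higher by that rule. For VPS4B silencing and for VPS4A silencing 0 of 7 members passed in all 4 comparisons in either direction by any of the 3 tools, and 0 at an unadjusted p under 0.05. The shares of all genes were 0.483% higher and 0.634% lower for VPS4B, and 0.00% higher and 0.00792% lower for VPS4A. By the unadjusted p alone they were 2.42% and 2.71% for VPS4B and 0.150% and 0.269% for VPS4A.

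AXIN2 (NM_004655, GRCh37 chr17:63524681-63557766, minus strand) had the largest fall of the members. The CPM values were 13.8, 19.5, 19.5 and 19.5 in the 4 NT libraries and 17.3, 20.1, 22.9, 19.3 and 21.4 in the 5 of siCTRL#1. With siVPS4A+B#2 they were 4.40, 4.48, 4.96 and 4.57, resting on 21 to 38 reads. All 4 libraries of this pair lay below every other library of the series, at 25.5% of the NT mean and 22.8% of the siCTRL#1 mean. The fall was 3.38-fold against NT (log2 -1.75 ± 0.14, SE; limma, Benjamini-Hochberg adjusted p = 3.43e-13) and 3.70-fold against siCTRL#1 (log2 -1.89 ± 0.14, adjusted p = 3.05e-14). In these whole-culture extracts, fewer cells with the transcript and less of it per cell cannot be told apart. With siVPS4A+B#1 the libraries read 13.9, 15.8, 18.5 and 12.0, which overlapped both controls, and log2 values of -0.25 against NT (limma adjusted p = 0.153) and -0.38 against siCTRL#1 (adjusted p = 0.0256) did not reach the fold threshold. The pairs differed from each other by -1.50 ± 0.14 (siVPS4A+B#2 minus siVPS4A+B#1, limma adjusted p = 6.43e-11), and AXIN2 was 1 of 3 members called between them, with RNF43 and TCF7, where 17.4% of all genes were called and 9.91% were lower.

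AXIN2 also fell with the single duplex siVPS4A#1, which is a component of siVPS4A+B#2. The CPM values were 8.21, 9.40, 9.51 and 10.3, and 6.47 in the library left out. None of these overlapped NT or siCTRL#1. The fall was 1.88-fold against NT (limma log2 -0.91 ± 0.15, adjusted p = 3.53e-06) and 2.06-fold against siCTRL#1 (-1.05 ± 0.13, adjusted p = 4.43e-08). AXIN2 was the only member called in either comparison, where 25.0% and 22.0% of all genes were called and 13.4% and 12.5% were lower. With siVPS4A#2 the values were 16.7, 18.3, 24.9 and 21.5, which overlapped NT and siCTRL#1 with replicate 3 above both, with log2 values of 0.16 against NT and 0.03 against siCTRL#1. The difference between the VPS4A duplexes (siVPS4A#2 minus siVPS4A#1) was 1.07 ± 0.15 on the log2 scale (limma adjusted p = 1.88e-07), and AXIN2 was the only member called there, with 22.2% of all genes called and 12.3% higher. VPS4A itself stood at 2.18 ± 0.895 (SD, n = 4) CPM with siVPS4A#1 and 7.88 with siVPS4A#2, and 5.03 and 19.96 in the pairs that contain them, so the depth of silencing and the identity of the duplex cannot be told apart.

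With the VPS4B duplexes the AXIN2 means lay above those of NT and siCTRL#1, and that of siVPS4B#1 lay below that of siCTRL#2. The means were 23.6 ± 3.32 with siVPS4B#1 and 28.1 ± 2.74 with siVPS4B#2 (SD, n = 4), against 18.1 ± 2.84 in NT, 20.2 ± 2.09 with siCTRL#1 (n = 5) and 26.5 ± 3.78 with siCTRL#2. Only siVPS4B#2 against NT was called, at 0.62 ± 0.14 (limma adjusted p = 0.00097). That call rested on replicate 1, whose NT library is the low value of 13.8, since without replicate 1 the value was 0.53 (adjusted p = 0.0198), under the fold threshold.

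**Figure D2:**
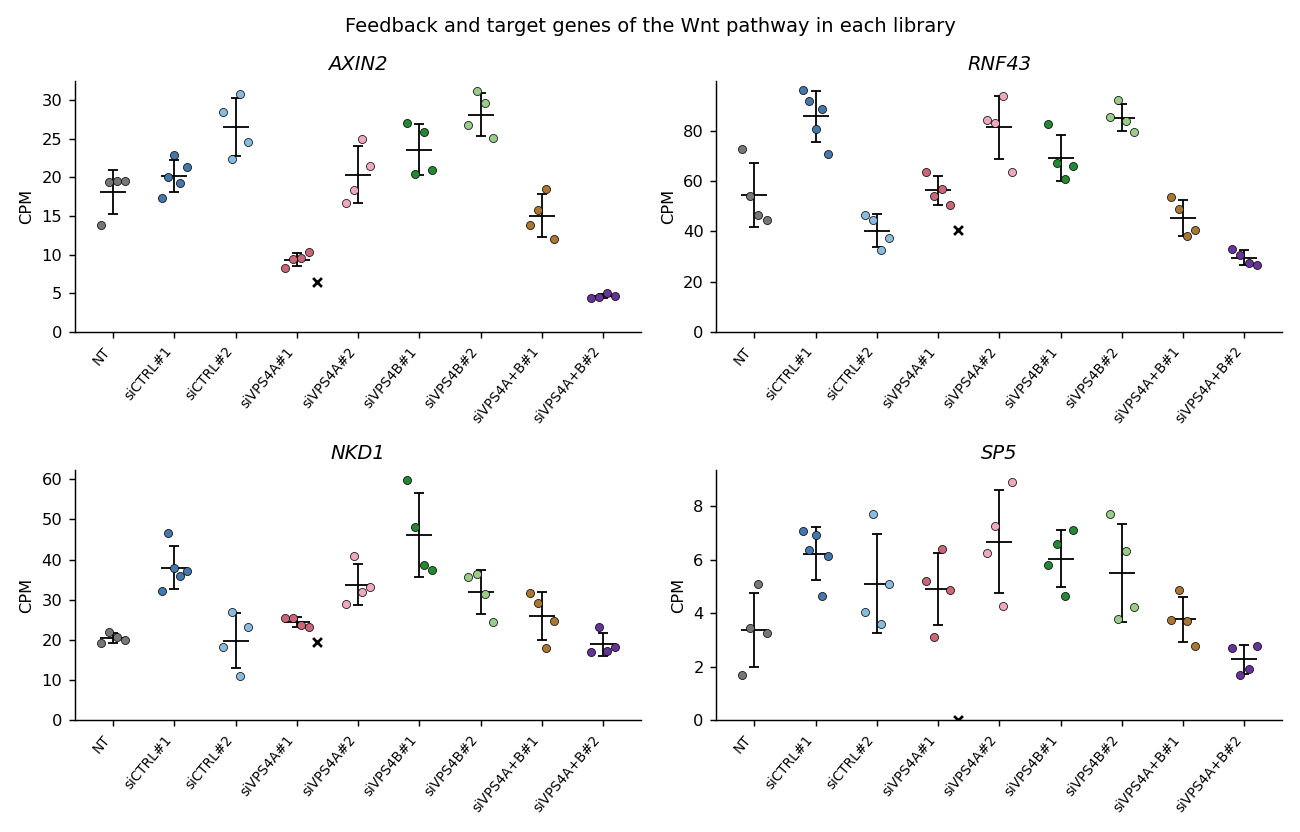
CPM of AXIN2, RNF43, NKD1 and SP5 (vertical axes, from 0) in each library by condition. Points are libraries, bars are the mean and SD, and the cross is the library of siVPS4A#1 left out. AXIN2 with siVPS4A+B#2 sits between 4.40 and 4.96, below every other library.

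NKD1 (NM_033119, GRCh37 chr16:50582307-50683160, plus strand) was lower with siVPS4A+B#2 than with siCTRL#1 but not than NT. The 5 libraries of siCTRL#1 read 32.3, 46.7, 37.9, 35.9 and 37.3 CPM. The NT libraries read 19.2, 21.9, 20.9 and 19.97, and those of siVPS4A+B#2 read 17.1, 23.3, 17.3 and 18.2. The pair thus overlapped NT and lay wholly under siCTRL#1. The log2 values were -0.99 ± 0.16 against siCTRL#1 (limma adjusted p = 2.94e-06) and -0.12 ± 0.16 against NT (adjusted p = 0.594). With siVPS4A+B#1 the mean was 25.9 ± 6.00 (SD, n = 4), with log2 values of -0.57 (adjusted p = 0.00442, 1.49-fold) and 0.30 (adjusted p = 0.147). Of the single duplexes, siVPS4B#1 gave the highest level, 46.1 ± 10.4, a rise of 1.11 ± 0.16 against NT (adjusted p = 1.16e-06) and 0.24 against siCTRL#1 (adjusted p = 0.314).

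RNF43 (NM_017763, GRCh37 chr17:56431037-56494956, minus strand), the receptor ligase whose truncating mutations are common in some colorectal tumours, was lowered by both pairs against siCTRL#1. The libraries of siCTRL#1 read 96.5, 92.1, 80.8, 88.8 and 71.0 CPM. Those of siVPS4A+B#1 read 53.6, 49.0, 38.3 and 40.6, and those of siVPS4A+B#2 read 33.2, 30.7, 27.5 and 26.6. Neither pair overlapped siCTRL#1, and the pairs did not overlap each other. The fall was 1.95-fold with siVPS4A+B#1 (limma log2 -0.97 ± 0.12, adjusted p = 1.18e-08) and 2.95-fold with siVPS4A+B#2 (-1.56 ± 0.12, adjusted p = 4.15e-14). The NT libraries read 72.9, 54.2, 46.3 and 44.6, all above siVPS4A+B#2 and overlapping siVPS4A+B#1 and, at the top, siCTRL#1. Against them siVPS4A+B#2 lowered RNF43 by 1.79-fold (-0.84 ± 0.12, adjusted p = 2.10e-07), whereas siVPS4A+B#1 stood at -0.25 ± 0.12 (adjusted p = 0.0935). The difference between the pairs, -0.60, lay at the fold threshold and was lost without replicate 1 (-0.56, adjusted p = 0.00291) and without replicate 2 (-0.58, adjusted p = 0.00503).

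With the single duplexes RNF43 did not pass against siCTRL#1. Its means were 56.3 ± 5.68 with siVPS4A#1, 81.5 ± 12.7 with siVPS4A#2, 69.3 ± 9.36 with siVPS4B#1 and 85.4 ± 5.38 with siVPS4B#2 (SD, n = 4), against 85.8 ± 10.1 with siCTRL#1 (n = 5). The nearest to a call was siVPS4A#1, at -0.57 (limma adjusted p = 9.73e-05, 1.48-fold), whose libraries, from 50.5 to 63.9, lay under all 5 of siCTRL#1.

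ZNRF3 (NM_001206998, GRCh37 chr22:29279560-29453476, plus strand), the paralog of RNF43, was not called in any of the comparisons. Its condition means ran from 26.6 with siCTRL#2 to 42.9 with siVPS4B#2. The NT libraries read 25.5, 46.1, 33.5 and 28.6, and this range of a single group held all 4 libraries of siVPS4A#2 and 3 of 4 of siVPS4A+B#2. Against siCTRL#1 the pairs stood at 0.19 ± 0.17 (siVPS4A+B#1, limma adjusted p = 0.412) and -0.32 ± 0.17 (siVPS4A+B#2, adjusted p = 0.132). Whether RNF43 and ZNRF3 differed in response was not tested.

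SP5 (NM_001003845, GRCh37 chr2:171571847-171574588, plus strand), whose promoter window holds the 3 matches printed above, was read by 8 to 68 reads per library. The libraries of siCTRL#1 read 7.07, 6.38, 6.94, 4.63 and 6.15 CPM. Those of siVPS4A+B#1 read 3.74, 4.87, 3.70 and 2.78, those of siVPS4A+B#2 read 2.71, 1.71, 1.92 and 2.77, and those of NT read 1.71, 3.44, 5.09 and 3.27. The libraries of siVPS4A+B#2 all lay under siCTRL#1, those of siVPS4A+B#1 overlapped it at the top, and both overlapped NT. The fall against siCTRL#1 was 2.21-fold with siVPS4A+B#2 (limma log2 -1.15 ± 0.23, adjusted p = 6.16e-05) and 1.52-fold with siVPS4A+B#1 (-0.61 ± 0.23, adjusted p = 0.0318). The second of these was lost without replicate 1 (-0.55, adjusted p = 0.0983), without replicate 3 (-0.58, adjusted p = 0.0679) and without replicate 4 (-0.58, adjusted p = 0.0858). SP5 was higher than in NT with siCTRL#1, siVPS4A#2 and siVPS4B#1, by 0.77, 0.83 and 0.73 (limma adjusted p = 0.0145, 0.0118 and 0.0116), and each call was lost without replicate 1, at 0.50, 0.63 and 0.53 (adjusted p = 0.232, 0.130 and 0.134). The siVPS4A#2 and siVPS4B#1 calls were also lost without replicate 4, at 0.70 and 0.67 (adjusted p = 0.0853 and 0.0505). The left-out library of siVPS4A#1 had 0 reads of SP5, and with it in the fit the SP5 calls for siVPS4A+B#1 against siCTRL#1 (-0.52, limma adjusted p = 0.267) and for siCTRL#1, siVPS4A#2 and siVPS4B#1 against NT (0.70, 0.83 and 0.73, adjusted p = 0.197, 0.144 and 0.120) were lost.

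TCF7 (NM_003202, GRCh37 chr5:133450372-133487556, plus strand) was near the floor, with 1 to 26 reads per library and 4 libraries at 3 reads or fewer, 3 of siCTRL#2 and 1 of siVPS4B#2. The NT libraries read 1.57, 1.66, 1.12 and 1.42 CPM, those of siVPS4A+B#1 read 1.87, 3.499, 3.10 and 2.34, and those of siVPS4A+B#2 read 1.18, 1.49, 0.961 and 2.04. The first pair lay above NT and the second overlapped it. The rise with siVPS4A+B#1 against NT was 0.59 ± 0.19 on the log2 scale (limma adjusted p = 0.011), and it was lost without replicate 2 (0.53, adjusted p = 0.0659) and without replicate 3 (0.47, adjusted p = 0.106). The difference between the pairs, -0.61 (adjusted p = 0.0117), was lost without the same replicates, at -0.53 (adjusted p = 0.0896) and -0.46 (adjusted p = 0.140).

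TCF7L2 (NM_001146274, GRCh37 chr10:114710006-114927437, plus strand) encodes TCF4, the main TCF factor of intestinal epithelium. NT had the highest mean of the 9 conditions, 445 ± 63.0 (SD, n = 4) CPM, with libraries at 360, 509, 444 and 465.9. The siCTRL#1 libraries read 301, 344, 265, 342 and 402. Those of siVPS4A+B#1 read 184, 235, 173 and 326, wholly under NT and overlapping siCTRL#1. Those of siVPS4A+B#2 read 252, 272, 287 and 366 and overlapped NT at the top. Against NT the fall was 1.98-fold with siVPS4A+B#1 (limma log2 -0.99 ± 0.14, adjusted p = 4.07e-07), 1.92-fold with siVPS4B#1 (-0.94 ± 0.14, adjusted p = 1.57e-06), 1.57-fold with siVPS4A#2 (-0.65 ± 0.14, adjusted p = 0.00157) and 1.51-fold with siVPS4A+B#2 (-0.60 ± 0.14, adjusted p = 0.000679). The call for siVPS4A#2 was lost without replicate 2 (-0.56, adjusted p = 0.0398) and that for siVPS4A+B#2 without replicate 2 (-0.50, adjusted p = 0.0245) and without replicate 3 (-0.58, adjusted p = 0.00868). The siVPS4A+B#2 call also fell under the fold threshold in DESeq2 (-0.57), with DESeq2 size factors (-0.57) and with the left-out library (-0.58). It passed in 9 of 14 alternatives. Against siCTRL#1 no silencing condition was called, the values running from -0.52 with siVPS4A+B#1 (adjusted p = 0.00303) to 0.14 with siVPS4B#2 (adjusted p = 0.547). The control siCTRL#1 itself stood at -0.47 against NT (limma adjusted p = 0.0148, 1.39-fold). Against NT the other non-targeting duplex, siCTRL#2, stood at -0.51 (adjusted p = 0.00526) and siVPS4A#1 at -0.50 (adjusted p = 0.00703), all under the fold threshold.

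**Figure D3:**
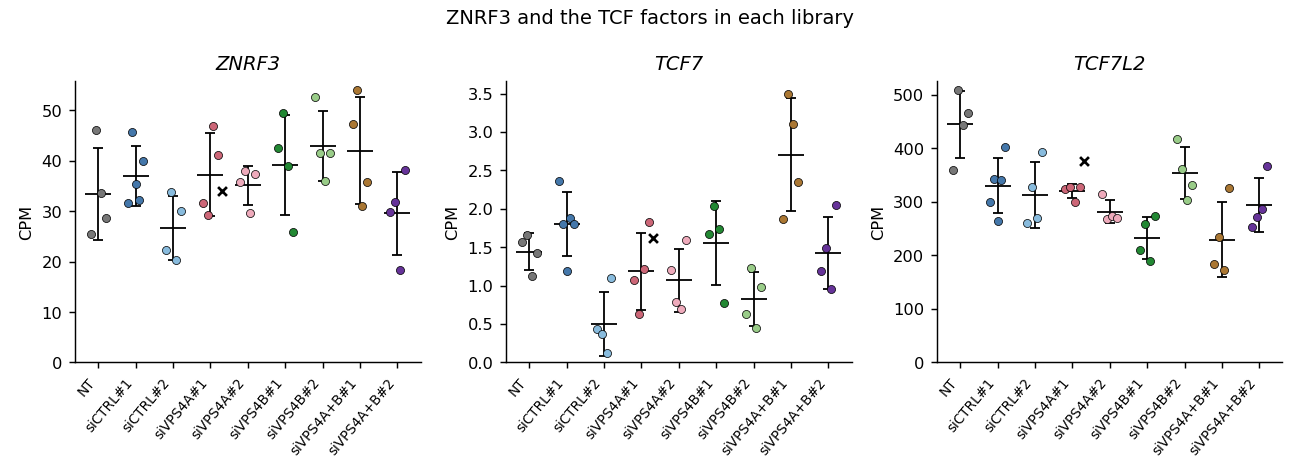
CPM of ZNRF3, TCF7 and TCF7L2 (vertical axes, from 0) in each library by condition, with points, bars (mean and SD) and the cross for the left-out library of siVPS4A#1. TCF7L2 is highest in NT, with a mean of 445, and TCF7 stays between 0.120 and 3.499 in the libraries used.

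The silencing of a single paralog was further read by counts. With siVPS4A#2 against NT, NKD1 and SP5 rose and TCF7L2 fell (3 of 7, with 8.14% of all genes called), NKD1 by 0.68 (limma adjusted p = 0.0038). Against siCTRL#1, siVPS4A#2 gave 0 of 7 calls in limma, DESeq2 and edgeR, with 0.0871% of all genes called and 1 of 7 members at an unadjusted p under 0.05, as were 6.40% of all genes. With siVPS4B#1 against NT, NKD1 and SP5 rose and TCF7L2 fell (3 of 7, with 22.3% called). With siVPS4B#2 against NT, AXIN2, NKD1 and RNF43 rose (3 of 7, with 15.5% called and 7.63% higher), RNF43 by 0.66 (adjusted p = 4.83e-05) and NKD1 by 0.60 (adjusted p = 0.00537). The NKD1 call with siVPS4B#2 was lost without replicate 1 (0.52, adjusted p = 0.0427) and without replicate 2 (0.57, adjusted p = 0.0478). Against siCTRL#1 both VPS4B duplexes gave 0 of 7 calls in each of the 3 tools, with 12.9% of all genes called for siVPS4B#1 and 7.57% for siVPS4B#2, and 2 of 7 members each at an unadjusted p under 0.05, as were 33.7% and 27.9% of all genes. Between the VPS4B duplexes TCF7L2 alone was called (1 of 7, with 15.1% called and 7.25% higher), at 0.61 ± 0.14 higher with siVPS4B#2 (adjusted p = 0.00131), and without replicate 1 it was 0.49 (adjusted p = 0.0301).

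The controls moved the members too, which bears on every comparison above. Against NT, siCTRL#1 raised NKD1 by 0.87 ± 0.16 (limma adjusted p = 0.000151), RNF43 by 0.72 ± 0.12 (adjusted p = 2.04e-05) and SP5 by 0.77 ± 0.23, 3 of 7 members where 9.05% of all genes were called and 4.84% were higher. The second non-targeting duplex did not do the same. With siCTRL#2 the RNF43 libraries read 46.7, 44.4, 32.7 and 37.2 CPM and the NKD1 libraries 18.2, 26.9, 11.0 and 23.2. None of these reached the lowest siCTRL#1 library, 71.0 for RNF43 and 32.3 for NKD1. The difference of siCTRL#2 minus siCTRL#1 was -1.13 ± 0.12 for RNF43 (adjusted p = 4.32e-10), -0.98 ± 0.16 for NKD1 (adjusted p = 6.98e-06) and -0.87 ± 0.18 for TCF7 (adjusted p = 0.000272), 3 of 7 members where 16.8% of all genes were called and 11.0% were lower. For RNF43 and NKD1 this gap between non-targeting duplexes was 2.19-fold and 1.98-fold, beside falls of 2.95-fold and 1.98-fold with siVPS4A+B#2 against siCTRL#1. With siVPS4A+B#1 the RNF43 fall was 1.95-fold, smaller than this gap. The RNF43 means of siCTRL#2 and siVPS4A+B#1, 40.3 and 45.4 CPM, were not called apart (limma adjusted p = 0.258). Against NT, siCTRL#2 lowered TCF7 alone, by 0.73 on the log2 scale (adjusted p = 0.00275), 1 of 7 where 16.6% of all genes were called and 10.5% were lower. Both TCF7 values rested on 1 to 12 reads per siCTRL#2 library and were under the fold threshold with a pseudocount of 5, at -0.23 and -0.29. AXIN2 stood above both other controls with siCTRL#2, at 0.53 for siCTRL#2 against NT (adjusted p = 0.00364) and 0.40 against siCTRL#1 (adjusted p = 0.024), both under the fold threshold.

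To ask whether a pair differed from the sum of its single duplexes, the interaction was tested with siCTRL#1 as the reference, by the adjusted p alone. In siVPS4A+B#2, AXIN2 lay 1.33 ± 0.19 below the sum (log2 -1.33, limma adjusted p = 3.00e-06), RNF43 lay at -0.94 ± 0.16 (adjusted p = 5.09e-05) and TCF7 at 0.77 ± 0.26 (adjusted p = 0.0312), 3 of 7 members where 19.7% of all genes passed. The AXIN2 sum holds a value of 0.49 for siVPS4B#2 against siCTRL#1 (limma adjusted p = 0.0134). Compared directly, the pair stood at -0.84 ± 0.15 against siVPS4A#1 (adjusted p = 3.08e-05) and -2.37 ± 0.14 against siVPS4B#2 (adjusted p = 9.22e-17). In siVPS4A+B#1, AXIN2 lay at -0.65 ± 0.20 (adjusted p = 0.0369) and TCF7 at 0.94 ± 0.26 (adjusted p = 0.0215), 2 of 7 where 6.32% passed, and RNF43 stood at -0.47 ± 0.16 (adjusted p = 0.0865). Thus AXIN2 was lower than the sum in both pairs, although in siVPS4A+B#1 none of the single duplexes nor the pair was called against siCTRL#1. In siVPS4A+B#1 the AXIN2 value was lost without replicate 1 (-0.58, adjusted p = 0.158), without replicate 3 (-0.67, adjusted p = 0.163) and without replicate 4 (-0.57, adjusted p = 0.229), and without the replicate block (-0.62, adjusted p = 0.0821). The TCF7 interactions were lost with both count-based tools, with adjusted p from edgeR of 0.0728 in siVPS4A+B#1 and 0.0705 in siVPS4A+B#2. Leaving out any replicate also ended the TCF7 interaction in siVPS4A+B#1, at 1.03, 0.85, 0.94 and 0.90 (adjusted p = 0.0561, 0.112, 0.102 and 0.0694 without replicates 1, 2, 3 and 4), and leaving out replicates 1, 3 or 4 ended it in siVPS4A+B#2, at 0.69, 0.73 and 0.69 (adjusted p = 0.143, 0.119 and 0.0748). The AXIN2 and RNF43 interactions in siVPS4A+B#2 passed in all 14 alternatives.

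**Figure D4:**
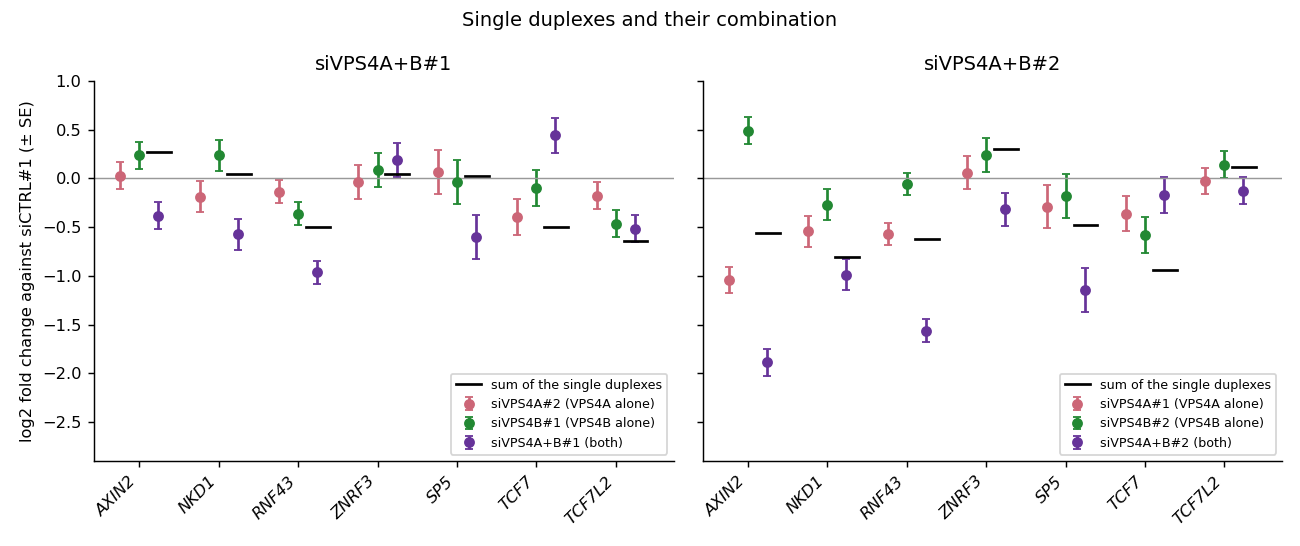
Log2 fold change against siCTRL#1 (vertical axis, with SE) of each member for the single duplexes and the pair that joins them, for siVPS4A+B#1 (left) and siVPS4A+B#2 (right). The black line is the sum of the single duplexes, and for AXIN2 in siVPS4A+B#2 the pair lies 1.33 below it (interaction of -1.33).

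The order of the 9 conditions was read for each member as a description, with neighbours compared by the adjusted p alone and no fold threshold. For AXIN2 the highest mean was that of siVPS4B#2 and the order ended with siVPS4A+B#1, siVPS4A#1 and siVPS4A+B#2, whose neighbouring differences passed (limma adjusted p = 0.000387 for siVPS4A+B#1 over siVPS4A#1 and 3.08e-05 for siVPS4A#1 over siVPS4A+B#2). For RNF43 the last step, siCTRL#2 over siVPS4A+B#2, passed (adjusted p = 0.00267). No other neighbours in the order of any member passed. Among genes with a mean of at least 10 CPM, the pattern over the 9 condition means most like that of AXIN2 was that of CRACD (Pearson r = 0.97), then THAP6 (0.97) and FAM117A (0.968). Those nearest to NKD1 were MYORG (0.955), TMEM19 (0.942) and ATG10 (0.94), and those nearest to RNF43 were FAM171B (0.958), SLC25A11 (0.942) and DGCR6L (0.934). For ZNRF3 they were TRAK2 (0.981), LAMA5 (0.919) and XPR1 (0.91), and for TCF7L2 they were CIRBP (0.939), GRHL2 (0.935) and USP48 (0.929). Between members the highest values were 0.832 for RNF43 with SP5, 0.82 for RNF43 with NKD1 and 0.768 for NKD1 with SP5. These correlations are over 9 means that share libraries, over a search of 8324 genes, and carry no p.

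The rest of the pathway was read from fixed lists under combined silencing, counting genes called in the same direction in all 4 comparisons (background 3.96% higher and 4.16% lower). Of 15 listed genes for Wnt ligands and their secretion, 2 rose, WNT7A and WNT9A, and 13 did not pass. WNT9A rose from a mean of 2.46 CPM in NT and 3.11 with siCTRL#1 to 11.8 and 7.17 with the pairs. WNT7A was low throughout, at 0.422 and 0.618 in the controls and 2.72 and 2.52 with the pairs, and siCTRL#2 raised it too against NT (limma log2 0.66, adjusted p = 0.0263). The largest mean log2 fold changes among the rest were -1.09 for WNT16, 0.90 for WNT6 and 0.87 for WNT7B. Of 18 listed receptors, co-receptors and R-spondins, 3 fell, FZD1, FZD3 and RSPO1. FZD3, a Frizzled receptor, fell from 26.5 in NT and 22.4 with siCTRL#1 to 11.0 and 9.35. FZD1 fell with log2 values between -0.93 and -0.68, and was not called in all 4 without replicate 2, and RSPO1, a secreted ligand of the LGR receptors, lost its call without replicate 4, was also lower with siCTRL#2 than in NT (limma log2 -0.64, adjusted p = 0.00796), and stood at 1.597 CPM or less in each condition mean. Some single duplexes were called against both controls as well. RSPO1 was lower with siVPS4A#1, siVPS4B#1 and siVPS4B#2, FZD1 with siVPS4A#1 and FZD3 with siVPS4B#1. WNT9A was higher with siVPS4A#1 and siVPS4B#1.

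Of 7 listed antagonists 1 fell, KREMEN2, a co-receptor of DKK proteins, from 14.3 in NT and 14.7 with siCTRL#1 to 8.99 and 7.39, a call lost without replicate 2 and without replicate 4. The non-targeting siCTRL#2 lowered KREMEN2 too, by 1.09 on the log2 scale against NT (limma adjusted p = 0.000684) and by 1.15 against siCTRL#1 (adjusted p = 0.00024). The single duplex siVPS4A#1 went the other way, with KREMEN2 called higher at 0.66 against NT (limma adjusted p = 0.0365) and 0.60 against siCTRL#1 (adjusted p = 0.0378). DKK1, a secreted inhibitor of LRP co-receptors, had the largest mean log2 fold change of the antagonists, 1.52, with 2.99 and 1.88 against siCTRL#1 but 1.16 and 0.05 against NT (limma adjusted p = 0.858 for the last). NOTUM, which removes the lipid of Wnt ligands, stood at -1.92 with siVPS4A+B#2 (adjusted p = 7.49e-07) and -0.39 with siVPS4A+B#1 (adjusted p = 0.307) against siCTRL#1, and at -0.66 (adjusted p = 0.0647) and 0.87 (adjusted p = 0.0166) against NT. Among the controls, NOTUM stood at 1.26 for siCTRL#1 against NT and -1.85 for siCTRL#2 against siCTRL#1 (limma adjusted p = 0.00198 and 3.43e-06), and DKK1 at -1.83 and 1.92 (adjusted p = 4.95e-09 and 1.60e-10).

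None of the 17 genes of the destruction complex and Dishevelled passed in all 4 comparisons. CTNNB1, which encodes beta-catenin, had the largest mean change of the list, -0.70. Its mean was 544 in NT, 553 with siCTRL#1, 404 with siVPS4A+B#1 and 278 with siVPS4A+B#2. Against siCTRL#1 it fell with siVPS4A+B#2 (limma log2 -0.96, adjusted p = 2.59e-08) and with siVPS4A#1 (-0.67, adjusted p = 2.02e-05), and stood at -0.44 with siVPS4A+B#1 (adjusted p = 0.00449), under the fold threshold. AXIN2 was also called lower with siVPS4A+B#2 and siVPS4A#1, which share a duplex, where 28.8% and 22.0% of all genes were called. A link between CTNNB1 and AXIN2 was not tested. None of the 15 listed nuclear partners of beta-catenin passed in all 4, and LEF1 and TLE4 were not listed. TLE2, a Groucho corepressor, lay at -0.79, -0.73, -0.64 and -0.57, the last under the fold threshold. PYGO2, a coactivator that binds BCL9, was set apart by the control, at 1.17 and 1.33 against siCTRL#1 and -0.32 and -0.15 against NT.

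Of 24 other reported beta-catenin targets, 2 rose and 4 fell in all 4 comparisons. PLAUR, the urokinase receptor, rose from 106 in NT and 133 with siCTRL#1 to 666 and 341 with the pairs, and FOSL1, a subunit of AP-1, rose from 55.5 and 68.5 to 215 and 136. BMP4, a secreted ligand of the BMP pathway, fell from 461 and 544 to 149 and 133, and ID2, an inhibitor of basic helix-loop-helix factors, from 59.1 and 72.0 to 33.7 and 16.4. BIRC5, which encodes survivin and is expressed in dividing cells, fell from 242 and 228 to 127 and 94.2. TNFRSF19, a TNF receptor family member, was near the floor, at 1.51 CPM in NT and 0.288 and 0.295 with the pairs. Beyond these, ENC1, TIAM1 and CEMIP had the largest mean changes, -1.21, -1.01 and -0.91, and ENC1 stood at -1.71 with siVPS4A+B#2 against siCTRL#1 (limma adjusted p = 8.78e-12) and -0.41 with siVPS4A+B#1 (adjusted p = 0.0341). The control siCTRL#2 also moved some of these genes against NT, PLAUR by 0.97 and TNFRSF19 by -0.77 (limma adjusted p = 1.42e-06 and 0.000365). Genes of this list are also controlled by other pathways.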

How the data were processed

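RNA was measured in HCT116 cells with an Ion AmpliSeq transcriptome panel. Per the labels and the study's methods, the authors aligned reads to hg19 AmpliSeq transcripts, counted them with HTSeq 0.6.0 and tested them with DESeq2 1.18.1. The values deposited by the authors are a signal: gene counts divided by the library's total, so that each library adds up to 1. All of the low values (up to 20 reads, 100% of them within 0.1 of a whole number) gave whole reads, which were recovered.

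Shares were scaled by TMM factors (0.881 to 1.1; edgeR 4.0.16) to CPM, and log2 values with a pseudocount of 1 were fitted with limma 3.58.1 (trend; R 4.3.3) over 12627 genes, with the replicate number, which matches the batch label, as a block, and Benjamini-Hochberg adjustment. Residuals of libraries with the same number correlated at a mean of 0.19 over 137 pairs and those with different numbers at -0.083 over 529. The shared effect was uneven, with means of 0.296, 0.083, 0.339 and 0.015 for replicate numbers 1, 2, 3 and 4. Calls needed a fold of 1.5 and an adjusted p under 0.05, interactions the adjusted p alone. DESeq2 1.42.0 and edgeR on recovered reads, scaling, filter, pseudocount, block and left-out replicates were alternatives, and the alternatives for list genes were added after seeing the data. Data for siVPS4A+B#1 against siCTRL#1 were simulated over 12627 genes, of which 12427 were unchanged. In these data limma called 98 of 100 genes raised 2-fold, 96 of 100 lowered 2-fold and 7 of the 12427 unchanged. The rates were not read by expression level. They therefore do not give the recovery of low genes such as TCF7 and SP5, with means of 1.40 and 4.92 CPM over the libraries. The members and lists were chosen with earlier results of these data known. Every member found was named, and of each list the genes called in all 4 comparisons of combined silencing and the 3 largest others by mean change, of which some are given here. The study describes its RNA-seq values as means of independent experiments, and the labels number the replicates without naming cultures. The p-values measure the spread between these libraries. Symbols were matched for 12471 of the 12627 identifiers, and 156 had none.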

Additional observations from a re-analysis of the deposited data

Results flagged for a closer look

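Among 63 groups of 4 or 5 libraries (7 members in 9 conditions), 3 held a library set apart from the rest by Dixon's criterion at the 95% level, about the number that chance gives. AXIN2 in NT had its lowest library in replicate 1, at 13.8 CPM. TCF7L2 with siVPS4A#1 had its lowest library in replicate 4, at 300.6, and with siVPS4A#2 its highest in replicate 1, at 314.

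Some pairs differed from the sum of their single duplexes on the log2 scale. The limits given above for the amounts of siCTRL#1 and the depth of VPS4A silencing hold here too. AXIN2 stood at -0.65 in siVPS4A+B#1 and -1.33 in siVPS4A+B#2 (limma, Benjamini-Hochberg adjusted p = 0.0369 and 3.00e-06), and RNF43 at -0.94 in siVPS4A+B#2 (adjusted p = 5.09e-05). TCF7, with few reads, stood at 0.94 in siVPS4A+B#1 and 0.77 in siVPS4A+B#2 (adjusted p = 0.0215 and 0.0312). The AXIN2 and RNF43 values in siVPS4A+B#2 passed in all 14 alternatives. The AXIN2 value in siVPS4A+B#1 passed in 9 of 14, and the TCF7 values in 8 and 7 of 14.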

How the results depend on the processing

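Of 546 values (39 member calls under 14 alternatives), 484 kept their direction and their side of the threshold, 62 fell short of it and 0 reversed, and the cause was not tested. The fall of AXIN2 with siVPS4A#1 and siVPS4A+B#2, of RNF43 with both pairs and of NKD1 and SP5 with siVPS4A+B#2 against siCTRL#1 passed in all 14. The counts of members called that moved by over 1.5 times were as follows, each with the share of all genes called under the same setting. Without the replicate block, siVPS4A#1 against siCTRL#1 gave 3 (21.6%), siVPS4B#2 against siCTRL#1 gave 1 (6.03%) and the siVPS4A+B#1 interaction gave 1 (4.70%), beside 1, 0 and 2 with it. edgeR gave 1 for that interaction (5.92%). The read filter gave 1 for siVPS4A+B#1 against NT (27.9%). Without TMM, siVPS4B#2 against siCTRL#1 gave 1 (7.70%), siVPS4A+B#1 gave 1 against NT (27.3%) and 4 against siCTRL#1 (24.4%), the pairs compared gave 1 (16.9%) and the siVPS4A+B#1 interaction gave 4 (6.65%). A pseudocount of 0.5 gave 1 for siVPS4B#2 against siCTRL#1 (8.28%). A pseudocount of 5 gave 1 for siVPS4B#2 against NT (8.74%), for siVPS4A+B#1 against NT (17.2%) and siCTRL#1 (13.96%) and for the pairs compared (10.2%), and 0 for siCTRL#2 against NT (10.2%). With the left-out library, siVPS4A#1 against siCTRL#1 gave 4 (19.2%), siVPS4A+B#1 against siCTRL#1 gave 1 (20.1%), siVPS4A#2 against siVPS4A#1 gave 2 (20.2%) and the siVPS4A+B#1 interaction gave 1 (2.59%). By the adjusted p alone, siVPS4A#1 gave 2 against NT (37.5%) and 3 against siCTRL#1 (37.05%), siVPS4B#1 gave 5 (36.5%) and 2 (22.0%), siVPS4B#2 gave 2 against siCTRL#1 (14.3%), siVPS4A+B#1 gave 5 against siCTRL#1 (37.04%), siCTRL#2 gave 4 (27.3%) and 5 (29.0%), and the duplexes compared gave 2 for VPS4A (33.2%), 2 for VPS4B (25.3%) and 5 for the pairs (29.4%). Leaving out replicates gave 1 to 2 for siVPS4A#1 against either control, 1 to 4 for siVPS4B#2 against NT and 0 to 1 against siCTRL#1, 1 to 2 and 1 to 3 for siVPS4A+B#1, 1 to 3 for siCTRL#2 against NT, 0 to 2 for the VPS4B duplexes, 1 to 5 for the pairs compared and 0 to 2 for the siVPS4A+B#1 interaction. Under the 14 alternatives and by the adjusted p alone, 0 members changed in all 4 comparisons of a target, and at an unadjusted p RNF43 was lower in all 4 of combined silencing. Depth limits TCF7 and SP5, the members with the fewest reads.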
